A study of Homo sapiens with 11 samples.

Results

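The transcripts described here encode the degradative machinery of the lysosome and the transcription factors that are known to control it. They comprise 41 genes in 4 groups, namely 3 factors of the MiT/TFE family (TFEB, TFE3 and MITF), 5 lysosomal membrane proteins, 19 luminal hydrolases and cofactors (8 proteases and 11 others), and 14 genes of the vacuolar H+-ATPase (V-ATPase), the proton pump of the lysosome. The genes were chosen by their symbols. All 41 were found among the 38557 genes of the count table, and all 41 were among the 14683 genes with enough counts to be tested. The cells were MOLM-13, a human acute myeloid leukemia line that carries a KMT2A fusion, grown in culture for 72 h. Control cells received the diluent DMSO (n = 4), a second group received 1 µM MI-503 (n = 4), and the last group received 100 nM PR-957 on top of 1 µM MI-503, here called the combination (n = 3, replicates 1, 2 and 4). MI-503 blocks the binding of menin to KMT2A, and PR-957, also known as ONX-0914, inhibits the immunoproteasome subunit PSMB8. Libraries with PR-957 alone were not analysed here, so the combination was compared with DMSO and with MI-503. The line is a single model, and the labels number the replicates without saying whether they were separate cultures, so p-values measure the spread between these libraries.

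Lysosomes break down proteins, lipids, glycans and glycogen by hydrolases that work best at acid pH. Most hydrolases are made in the endoplasmic reticulum and sorted to the lysosome by mannose 6-phosphate or by sortilin, and the V-ATPase acidifies the lumen by turning ATP hydrolysis in its cytosolic V1 sector into proton transport through its membrane V0 sector. TFEB, TFE3 and MITF are held in the cytoplasm when mTORC1 phosphorylates them at the lysosomal surface, and upon dephosphorylation they enter the nucleus and bind the CLEAR element, an extended E-box, in promoters of lysosomal genes. Their activity is set to a large part by this localization, which a transcript level does not measure. Monocytes and macrophages are known for abundant lysosomes.

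Promoters were read from RefSeq (GRCh38.p14), each spanning 250 bases before to 50 bases after the start site, and 29 of the 41 genes had an entry. They were searched for the E-box CACGTG and for the core of the CLEAR element, TCACGTGA, which contains the E-box. Both motifs read the same on both strands. The E-box was found in 8 of the 29 promoters (27.6%) and the CLEAR core in 5 (17.2%), whereas the shares among all 35116 promoters of the table were 7.26% and 0.98%, and among the 10694 promoters of tested genes 9.99% and 1.85%. The CLEAR core was present in LAMP1, MCOLN1, GAA, CTSA and ATP6V0D1, and the E-box alone in CD63, ATP6V0B and CTSD. The windows below show, 5′ to 3′ on the strand of the gene and with the motif in capitals, that LAMP1, MCOLN1 and GAA each carried 2 copies of the CLEAR core. CTSA and ATP6V0D1 are shown as the other carriers of the core, and CTSD because it is the gene with the largest change. Distances are to the RefSeq start site of the promoter table, which for GAA and CTSA lies inside the gene interval of the count table.
LAMP1, chr13:113297199-113297228, plus strand, motif starting 29 bases before the start site: gacccgcgggaTCACGTGAcgcccgggcgc
LAMP1, chr13:113297226-113297255, plus strand, motif starting 2 bases before the start site: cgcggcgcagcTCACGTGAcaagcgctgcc
MCOLN1, chr19:7522571-7522600, plus strand, motif starting 42 bases before the start site: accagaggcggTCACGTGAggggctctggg
MCOLN1, chr19:7522598-7522627, plus strand, motif starting 15 bases before the start site: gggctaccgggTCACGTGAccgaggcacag
GAA, chr17:80101493-80101522, plus strand, motif starting 77 bases before the start site: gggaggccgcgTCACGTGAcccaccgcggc
GAA, chr17:80101538-80101567, plus strand, motif starting 32 bases before the start site: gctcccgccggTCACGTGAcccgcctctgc
CTSA, chr20:45891298-45891327, plus strand, motif starting 26 bases before the start site: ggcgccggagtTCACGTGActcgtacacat
ATP6V0D1, chr16:67481199-67481228, minus strand, motif starting 60 bases before the start site: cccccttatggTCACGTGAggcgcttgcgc
CTSD, chr11:1763958-1763985, minus strand, motif starting 47 bases before the start site: ccggccgcgccCACGTGaccggtccggg
LAMP1 held 4 further E-boxes upstream of these windows. None of the 3 MiT/TFE promoters held the E-box, which says only that these letters are not in the window. A match is a description of the sequence, and no binding was measured in these libraries.

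Libraries held 18891243 to 41153974 counted fragments. Levels are given as CPM, the counts relative to library size, scaled by trimmed mean of M values (TMM) factors, and changes as log2 fold changes with their standard error (SE). The combination libraries did not agree among themselves, and replicate 1 stood apart. The 41 genes together took 0.340 to 0.350% of all counts in DMSO and 0.441 to 0.457% upon MI-503, but 0.525% in replicate 1 of the combination against 0.697% and 0.720% in replicates 2 and 4. Replicate 1 was the lowest combination library for 35 of the 41 genes, and for 5 genes it lay more than 1.5 times below the mean of replicates 2 and 4. Across all tested genes the chi-square per degree of freedom was 19.6 and 34.0 between replicate 1 and the other two, 4.47 between replicates 2 and 4, and 1.71 to 5.74 between libraries of the other groups. Fragments were counted without regard to strand, and those in stretches shared between genes were left out, which touches 8.70% of the exon bases of GLB1, 8.61% of ATP6V1E1 and 5.87% of CD63. Results with and without combination replicate 1 are therefore given where a call depends on it.

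Markers of the line were present, with CD33, SPI1, PTPRC, FLT3, CEBPA and MPO all tested, whereas CD3D, CD3E, MS4A1, EPCAM, HBB and GATA1 stayed under 0.12 CPM in every library, and the epithelial keratin KRT18 was detected, at 32.9 CPM on average in DMSO. A list of 12 monocyte and macrophage maturation genes moved with the treatments. Its summed level was 134.3 to 163.5 CPM in DMSO, 515 to 526 CPM upon MI-503, and 801 CPM in replicate 1, 2026 CPM in replicate 2 and 2737 CPM in replicate 4 of the combination. Of the 7 genes of the list that could be tested, 7 were higher in MI-503 than in DMSO, 7 in the combination than in DMSO, and 4 in the combination than in MI-503, with the antimicrobial enzyme LYZ taking most of the sum. CD14, MRC1 and FCN1 stayed under 0.5 CPM in all libraries. The part of this shift in the lysosomal changes was not tested. In bulk RNA, more cells of a maturing type and more transcript per cell cannot be told apart.

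MI-503 raised 13 of the 19 hydrolases and cofactors, and the combination raised 15 of these and 7 of the 14 V-ATPase genes, each against DMSO. Against DMSO, 22 of the 41 genes were higher and 5 lower upon MI-503 at an adjusted p under 0.05, beside 22.0% and 29.3% of all tested genes, and the median log2 fold change was 0.21 against -0.028 over all tested genes. With upper-quartile scaling, 54.2% rather than 42.9% of all calls in this comparison were in the higher direction. The shared fit estimates its error over all 11 libraries, the combination included. With only DMSO and MI-503 in the fit, 28 of the 41 genes were higher and 4 lower. Beside these stood 4079 higher and 3977 lower of the 13904 genes tested there. The combination raised 29 and lowered 3 against DMSO, beside 31.7% and 32.8%, with a median of 0.47 against 0.013. Compared with MI-503, the combination raised 26 and lowered 2, beside 23.6% and 23.8%, with a median of 0.26 against 0.0041. This last count of genes raised was 30 without replicate 1 of the combination, 17 without replicate 2 and 16 without replicate 4. Of all tested genes, 3209 of 14751, 2578 of 14879 and 2802 of 14738 were higher in the same order, and 3467 of 14683 with all libraries. The median was 0.13 without replicate 4, against -0.037 over all tested genes. All libraries of one group lay above all of the other for 26 genes in either direction (MI-503 against DMSO), 31 genes (combination against DMSO) and 22 genes (combination against MI-503), beside 50.3%, 60.5% and 47.6% of all tested genes. The comparisons share libraries and are not independent of each other.

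**Figure D1:**
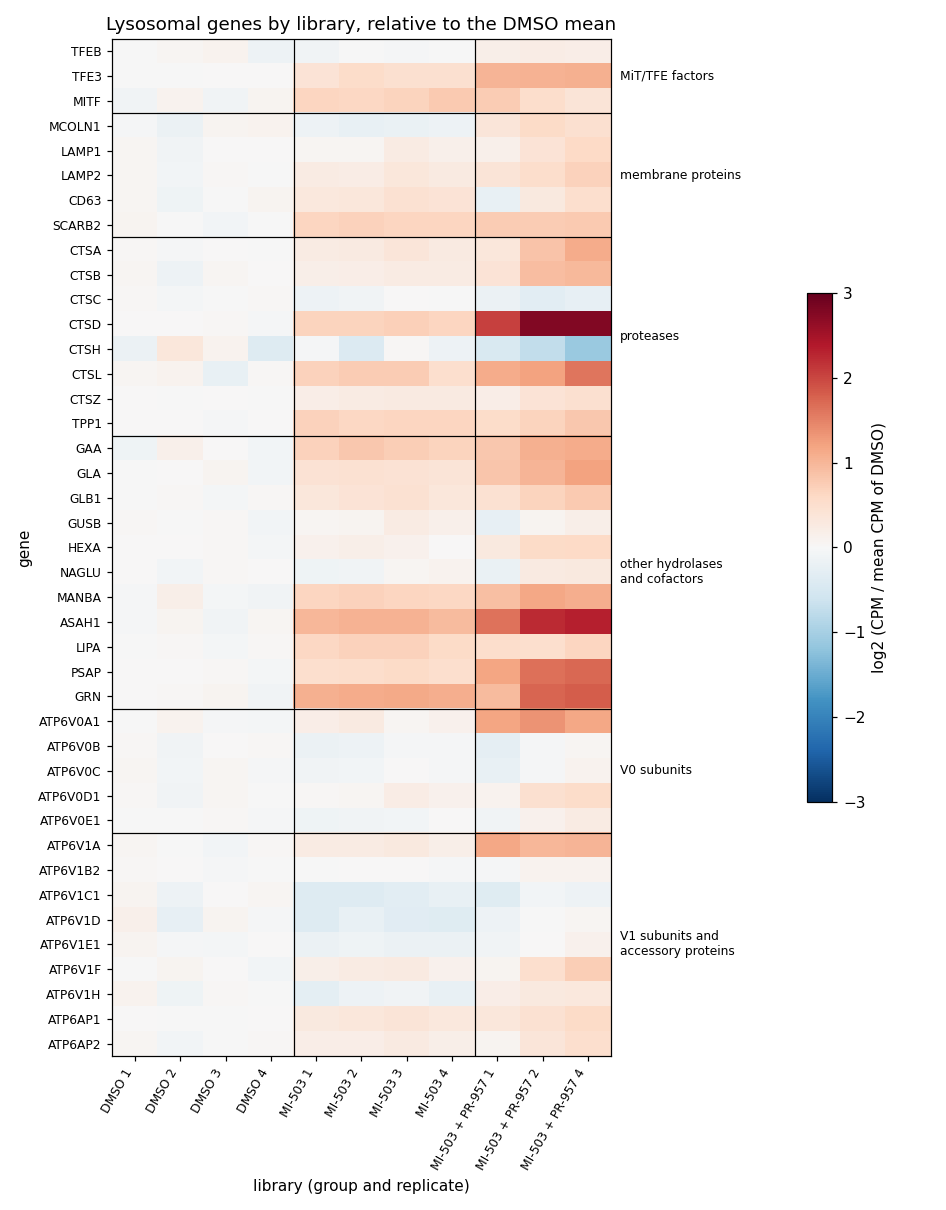
Each row is 1 of the 41 genes, grouped by class, and each column 1 of the 11 libraries. Color gives log2 of CPM over the DMSO mean. CTSD, ASAH1, PSAP and GRN are the deepest red upon the combination, replicate 1 of the combination is paler than replicates 2 and 4 in most rows, and the V-ATPase rows are pale apart from ATP6V0A1 and ATP6V1A.

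By class, 13 of the 19 hydrolases and cofactors were higher upon MI-503 and none lower, with a median of 0.43, and 15 were higher and 2 lower upon the combination against DMSO, with a median of 0.79. Among the 14 V-ATPase genes, 4 were higher and 4 lower upon MI-503, near the 22.0% and 29.3% of all tested genes, and 7 were higher, 1 lower and 6 not called upon the combination against DMSO, beside 31.7% and 32.8%. The V-ATPase median upon MI-503 was -0.031, and it was -0.0041 with relative log expression scaling and 0.031 with upper-quartile scaling, so its sign followed the scaling. Adding PR-957 to MI-503 raised 9 V-ATPase genes and lowered none, beside 23.6% and 23.8% of all tested genes, with a median of 0.17. Of these calls, those of ATP6V0A1, ATP6V1A and ATP6V1H held in all 20 alternative settings. The calls of ATP6AP1, ATP6V0D1, ATP6V0E1, ATP6V1D, ATP6V1E1 and ATP6V1F were each lost without combination replicate 2 and also without replicate 4. Summed over the 19 hydrolases and cofactors, the level was 1776 ± 27.5 CPM in DMSO (SD, n = 4), 2586 ± 55.8 CPM upon MI-503 (n = 4), and 4014 ± 767 CPM upon the combination (n = 3). For the 14 V-ATPase genes the sums were 1142 ± 27.3, 1158 ± 25.2 and 1345 ± 118.5 CPM in the same order. The wide spread of the combination sums came with the lower values of replicate 1.

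**Figure D2:**
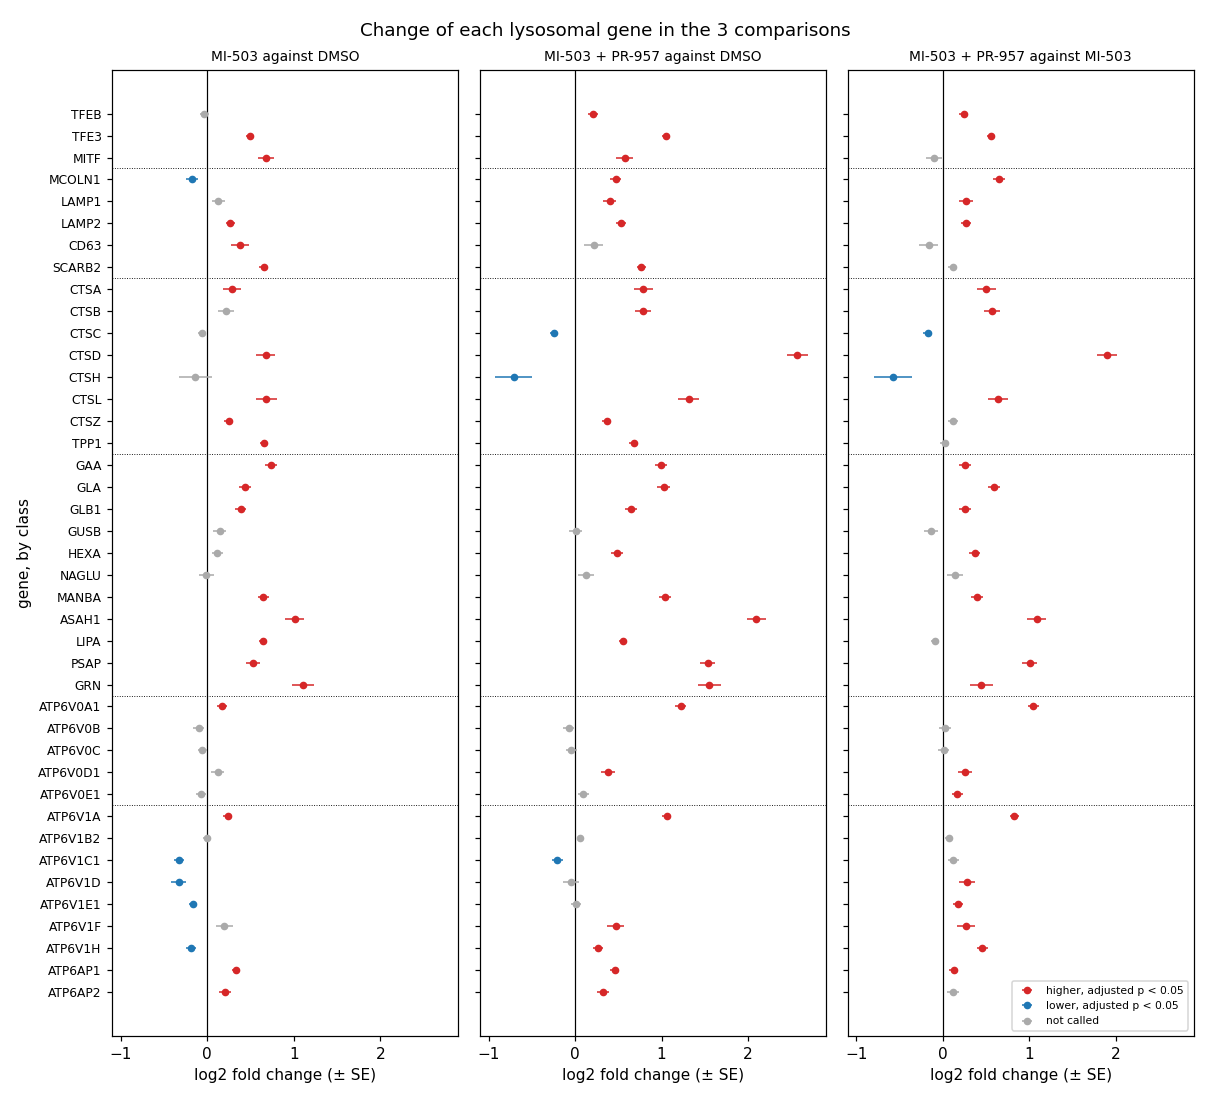
Points are log2 fold changes and bars their SE from the fit across all 11 libraries, in 3 comparisons, with genes in the same order of classes (dotted lines). Red points passed an adjusted p of 0.05 in the higher direction and blue points in the lower direction. CTSD reaches 2.57 in the combination against DMSO, and CTSC and CTSH lie left of 0 there.

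The 3 MiT/TFE factors followed 3 different courses. TFE3 (chrX:49028726-49043357), whose product shares the CLEAR element with TFEB, was measured at 27.7, 27.6, 28.3 and 28.4 CPM in DMSO, 37.5, 41.1, 39.1 and 39.4 CPM upon MI-503, and 57.2, 58.1 and 58.6 CPM upon the combination. Each group lay above the one before it without overlap. TFE3 rose by 0.49 ± 0.045 (adjusted p = 1.6e-07) upon MI-503, by 1.05 ± 0.047 (adjusted p = 1.1e-11) upon the combination against DMSO, and by 0.56 ± 0.046 (adjusted p = 5.6e-08) when PR-957 was added to MI-503. TFEB (chr6:41683978-41736223), the best known regulator of lysosome biogenesis, stood at 43.04, 45.5, 46.6 and 39.4 CPM in DMSO, 40.7, 43.4, 42.6 and 43.5 CPM upon MI-503, and 49.7, 50.9 and 50.4 CPM upon the combination. DMSO and MI-503 libraries overlapped, and all 3 combination libraries were above both. TFEB differed by -0.035 ± 0.052 (adjusted p = 0.60) between MI-503 and DMSO, and rose by 0.20 ± 0.055 (adjusted p = 0.0038) in the combination against DMSO and by 0.24 ± 0.055 (adjusted p = 0.0018) against MI-503. MITF (chr3:69739464-69968337), which also drives melanocyte and osteoclast genes, was the least abundant of the 3, with 6.68, 7.67, 6.69 and 7.59 CPM in DMSO, 11.2, 10.96, 11.4 and 12.3 CPM upon MI-503, and 12.1, 10.2 and 9.41 CPM upon the combination. All MI-503 libraries were above all DMSO libraries, and the combination overlapped the MI-503 range and reached below it. MITF rose by 0.68 ± 0.093 (adjusted p = 1.2e-05) upon MI-503 and by 0.58 ± 0.10 (adjusted p = 7.3e-05) upon the combination against DMSO. The difference between the combination and MI-503 was -0.10 ± 0.095 (adjusted p = 0.39), and without replicate 1 of the combination MITF was called lower there, at -0.25 (adjusted p = 0.035). Replicate 1 was the highest combination library for MITF, and the 3 combination libraries were nearly equal for TFEB and TFE3.

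The fourth member of the family, TFEC, a factor known from macrophages, is outside the 41 genes. It was measured at 20.1, 20.9, 18.02 and 20.3 CPM in DMSO, 37.1, 30.2, 33.2 and 35.6 CPM upon MI-503, and 55.2, 56.8 and 61.8 CPM upon the combination and differed by 0.77 ± 0.070 (adjusted p = 1.1e-07), 1.55 ± 0.072 (adjusted p = 1.5e-11) and 0.77 ± 0.069 (adjusted p = 1.4e-07) in the 3 comparisons, each group above the one before it. Per length of exon (CPM divided by exon length in kilobases, FPKM), TFEB made up 49.9% ± 2.203 of the summed level of the 4 factors in DMSO (SD, n = 4), 39.6% ± 0.55 upon MI-503 (n = 4), and 34.5% ± 0.37 upon the combination (n = 3). The share of TFE3 went from 35.1% ± 1.397 to 39.9% ± 1.11 and 43.4% ± 0.10, and that of TFEC from 10.3% ± 0.79 to 14.3% ± 1.400 and 17.9% ± 0.85. TFEB was thus the most abundant factor in DMSO, and TFE3 in the combination.

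**Figure D3:**
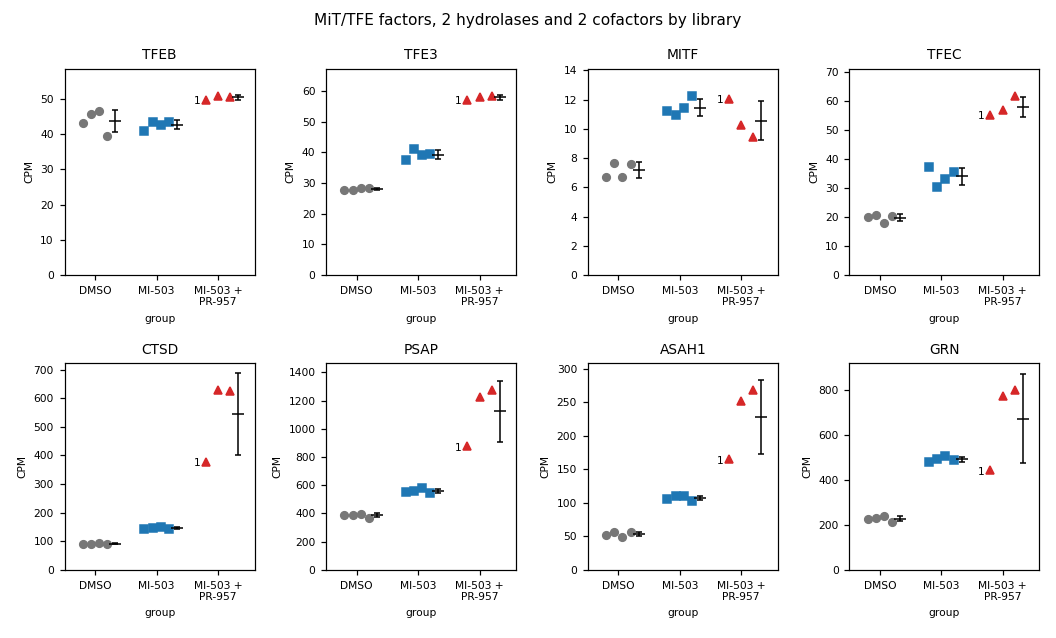
Each point is a library (gray circles DMSO, blue squares MI-503, red triangles the combination, with 1 marking its replicate 1), and black bars are mean ± SD. The y axes are CPM from 0. TFE3 and TFEC step up at each treatment, TFEB is higher only in the combination, and for CTSD, PSAP, ASAH1 and GRN replicate 1 lies below replicates 2 and 4.

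Among the membrane proteins, SCARB2, the receptor that carries glucocerebrosidase to the lysosome, rose with MI-503 and little further with the combination. Its levels were 21.8, 20.3, 19.3 and 20.4 CPM in DMSO, 31.8, 32.8, 32.2 and 31.8 CPM upon MI-503, and 34.5, 34.7 and 35.3 CPM upon the combination. The MI-503 and combination libraries were each above DMSO without overlap. The log2 fold change was 0.65 ± 0.051 (adjusted p = 2.3e-08) upon MI-503, 0.77 ± 0.054 (adjusted p = 1.9e-09) upon the combination and 0.12 ± 0.052 (adjusted p = 0.077) between the treatments. LAMP2, an abundant glycoprotein of the lysosomal membrane that also serves chaperone-mediated autophagy, rose at both steps. It was counted at 159, 145, 156 and 152 CPM in DMSO, 182, 179, 192 and 183 CPM upon MI-503, and 199.7, 221 and 245 CPM upon the combination. All groups were separate, with changes of 0.27 ± 0.054 (adjusted p = 5.8e-04), 0.54 ± 0.058 (adjusted p = 3.7e-07) and 0.27 ± 0.058 (adjusted p = 0.0011), and the last was 0.15 (adjusted p = 0.023) without replicate 4 of the combination. Its homolog LAMP1 was called higher in the combination against DMSO, by 0.40 ± 0.077 (adjusted p = 2.3e-04), and against MI-503, by 0.27 ± 0.077 (adjusted p = 0.0084). The second call was lost without replicate 2, at 0.23 (adjusted p = 0.060), or replicate 4 of the combination, at 0.12 (adjusted p = 0.16), and 15.5% of the exon bases of LAMP1 are shared with GRTP1, whose fragments there are left out. For LAMP1, upon MI-503 the change was 0.13 ± 0.072 (adjusted p = 0.15) and passed the threshold without replicate 1 or without replicate 4 of the combination, at 0.17 (adjusted p = 0.0031) and 0.17 (adjusted p = 0.021). CD63, a tetraspanin of late endosomes and lysosomes, rose by 0.38 ± 0.10 (adjusted p = 0.0049) upon MI-503. In the combination CD63 was 107, 153 and 175 CPM, below the DMSO libraries in replicate 1 and above them in the others, and the difference from DMSO, 0.22 ± 0.11 (adjusted p = 0.092), became 0.42 (adjusted p = 9.4e-07) without replicate 1. Against MI-503, CD63 differed by -0.16 ± 0.11 (adjusted p = 0.24), which was called lower without replicate 4, at -0.36 (adjusted p = 0.0050).

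MCOLN1 (chr19:7522624-7534009), the calcium release channel of the lysosome, moved in opposite directions at the 2 steps. It stood at 27.5, 25.1, 29.98 and 30.1 CPM in DMSO, 25.5, 24.01, 24.7 and 25.4 CPM upon MI-503, and 36.1, 41.8 and 39.5 CPM upon the combination. The MI-503 libraries overlapped the lowest DMSO library, and the combination libraries were above all others. MCOLN1 was lower upon MI-503, with a log2 fold change of -0.18 ± 0.065 (adjusted p = 0.030), and higher upon the combination, by 0.47 ± 0.068 (adjusted p = 1.1e-05) against DMSO and 0.65 ± 0.068 (adjusted p = 9.0e-07) against MI-503. The first of these calls was lost when any of 6 single libraries was left out, namely DMSO replicates 3 and 4, MI-503 replicates 2 and 3, and combination replicates 2 and 4, with log2 fold changes of -0.17 to -0.14 and adjusted p = 0.062 to 0.098, and also with other scalings, filters and DESeq2. The 2 other MCOLN1 calls held in all 20 alternative settings.

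The proteases were led by CTSD, the aspartic protease cathepsin D (chr11:1752755-1763927, minus strand), which carries the E-box shown above. CTSD was measured at 92.2, 91.4, 92.97 and 88.97 CPM in DMSO, 144, 145, 151 and 144 CPM upon MI-503, and 378, 627 and 626 CPM upon the combination. The 3 groups were far apart, and replicate 1 of the combination lay between MI-503 and the other combination libraries. CTSD rose by 0.67 ± 0.11 (adjusted p = 8.2e-05) upon MI-503, by 2.57 ± 0.12 (adjusted p = 1.5e-11) upon the combination against DMSO and by 1.90 ± 0.12 (adjusted p = 1.4e-09) against MI-503, and without replicate 1 the last was 2.08 (adjusted p = 2.4e-21). TPP1, an exopeptidase that removes tripeptides, rose with MI-503 alone. Its levels were 135, 135, 129.9 and 134 CPM in DMSO, 214, 206, 209.9 and 209 CPM upon MI-503, and 196, 210.3 and 234 CPM upon the combination. The MI-503 and combination ranges overlapped, with changes of 0.65 ± 0.048 (adjusted p = 1.1e-08), 0.68 ± 0.051 (adjusted p = 4.5e-09) and 0.025 ± 0.051 (adjusted p = 0.72). CTSB, the cysteine protease cathepsin B, was measured at 99.1, 85.6, 99.7 and 95.9 CPM in DMSO, 107, 109.8, 112 and 112 CPM upon MI-503, and 125, 181 and 187 CPM upon the combination. The combination libraries were above all others, with changes of 0.79 ± 0.10 (adjusted p = 1.9e-06) against DMSO and 0.57 ± 0.10 (adjusted p = 1.3e-04) against MI-503. For MI-503 the CTSB difference of 0.21 ± 0.092 (adjusted p = 0.061) did not pass in the fit of all 11 libraries, although the groups did not overlap. Leaving out any 1 combination library brought it to 0.26 (adjusted p = 1.5e-05), 0.25 (adjusted p = 0.031) or 0.25 (adjusted p = 0.015). With only DMSO and MI-503 in the fit, the CTSB difference was called, at 0.26 (adjusted p = 1.0e-05). The annotation of CTSB counts exons on 2 sequences of the build, so its level per length is not given weight here.

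Of the other cathepsins, CTSL, a cysteine endopeptidase of low abundance here, rose from 5.37, 5.61, 4.41 and 5.31 CPM in DMSO to 8.38, 8.72, 8.75 and 7.33 CPM upon MI-503 and 11.2, 11.9 and 15.7 CPM upon the combination, by 0.68 ± 0.12 (adjusted p = 1.7e-04) and 1.31 ± 0.12 (adjusted p = 6.6e-08) against DMSO. CTSA, the protective protein of beta-galactosidase and neuraminidase, rose by 0.79 ± 0.11 (adjusted p = 8.3e-06) in the combination against DMSO and 0.51 ± 0.11 (adjusted p = 0.0012) against MI-503, and the latter was 0.28 (adjusted p = 0.016) without replicate 4. The CTSA call upon MI-503, 0.29 ± 0.11 (adjusted p = 0.032), was lost without any 1 of the 4 DMSO libraries or without MI-503 replicate 2, 3 or 4, with adjusted p = 0.052 to 0.076, and 43.4% of the exon bases of CTSA are shared with NEURL2, PLTP and SPATA25. CTSZ, a carboxypeptidase, rose by 0.25 ± 0.051 (adjusted p = 6.5e-04) and 0.36 ± 0.054 (adjusted p = 1.5e-05) against DMSO, and its difference between the treatments, 0.12 ± 0.054 (adjusted p = 0.081), was called without replicate 1 of the combination at 0.17 (adjusted p = 0.0015). With all libraries in the fit, CTSC and CTSH were the only 2 hydrolases called lower in any of the 3 comparisons. CTSC, the dipeptidyl peptidase that activates granule serine proteases, was measured at 189, 176, 181 and 186 CPM in DMSO, 165, 170.1, 183 and 180.5 CPM upon MI-503, and 162, 147 and 155 CPM upon the combination. Its combination libraries were below all DMSO and all MI-503 libraries, with log2 fold changes of -0.24 ± 0.048 (adjusted p = 3.2e-04) and -0.17 ± 0.048 (adjusted p = 0.0069). CTSH, an aminopeptidase, was the gene with the lowest level of the 41 per length of exon, at 1.65, 2.34, 1.99 and 1.42 CPM in DMSO, 1.81, 1.395, 1.899 and 1.68 CPM upon MI-503, and 1.35, 1.104 and 0.856 CPM upon the combination. The combination libraries were below the others, with log2 fold changes of -0.71 ± 0.22 (adjusted p = 0.0087) against DMSO and -0.57 ± 0.22 (adjusted p = 0.039) against MI-503, and the second call was lost without replicate 2 or 4 of the combination or MI-503 replicate 1, 3 or 4, with adjusted p = 0.062 to 0.12.

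Of the other hydrolases and their cofactors, 8 of 11 were higher upon MI-503, 9 of 11 upon the combination against DMSO, 8 of 11 upon the combination against MI-503, and none lower. The shares higher among all tested genes were 22.0%, 31.7% and 23.6% in the same order, and those lower 29.3%, 32.8% and 23.8%. ASAH1, acid ceramidase, was measured at 51.9, 55.96, 49.2 and 55.9 CPM in DMSO, 106, 109.8, 109.7 and 103 CPM upon MI-503, and 165, 252 and 268 CPM upon the combination. The groups were separate, and replicate 1 of the combination was again lowest of its group. ASAH1 rose by 1.01 ± 0.11 (adjusted p = 8.4e-07), 2.10 ± 0.11 (adjusted p = 8.8e-11) and 1.09 ± 0.11 (adjusted p = 6.0e-07). PSAP (chr10:71816298-71851251, minus strand), the precursor of the saposins that present sphingolipids to these enzymes, was counted at 392, 389.7, 399.6 and 370.1 CPM in DMSO, 549, 559, 581 and 546 CPM upon MI-503, and 876, 1225 and 1273 CPM upon the combination. No libraries of different groups overlapped for PSAP, with changes of 0.53 ± 0.082 (adjusted p = 4.4e-05), 1.54 ± 0.088 (adjusted p = 1.6e-10) and 1.01 ± 0.087 (adjusted p = 9.6e-08). GRN, the precursor of lysosomal granulins and a protein that binds PSAP and CTSD, was measured at 228, 233, 239 and 212 CPM in DMSO, 479.9, 493, 504 and 488 CPM upon MI-503, and 443, 771 and 798 CPM upon the combination. Replicate 1 of the combination was below all MI-503 libraries, and replicates 2 and 4 were far above them. GRN rose by 1.11 ± 0.12 (adjusted p = 1.2e-06) upon MI-503, the largest change of the 41 genes in that comparison, and by 1.55 ± 0.13 (adjusted p = 1.5e-08) upon the combination. The GRN difference between the treatments was 0.45 ± 0.13 (adjusted p = 0.0088), and it was lost without replicate 2, at 0.30 (adjusted p = 0.10), or replicate 4, at 0.27 (adjusted p = 0.099).

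GAA (chr17:80101535-80119881), acid alpha-glucosidase, which degrades glycogen and whose promoter held 2 CLEAR cores, was measured at 63.2, 77.1, 69.5 and 65.5 CPM in DMSO, 112, 121, 115 and 109.8 CPM upon MI-503, and 121, 143 and 148 CPM upon the combination. Both treated groups were above DMSO, with changes of 0.73 ± 0.067 (adjusted p = 1.4e-07) and 1.00 ± 0.071 (adjusted p = 2.3e-09). The further step of GAA, 0.26 ± 0.070 (adjusted p = 0.0053), was lost without replicate 2, at 0.19 (adjusted p = 0.075), or replicate 4 of the combination, at 0.16 (adjusted p = 0.082). LIPA, the lysosomal acid lipase that releases cholesterol from its esters, was raised by MI-503 with no further rise. It stood at 89.2, 92.5, 87.4 and 93.01 CPM in DMSO, 139, 145, 145 and 135 CPM upon MI-503, and 129.9, 127 and 141 CPM upon the combination. The treated groups overlapped, and LIPA changed by 0.64 ± 0.044 (adjusted p = 5.1e-09), 0.55 ± 0.047 (adjusted p = 1.8e-08) and -0.088 ± 0.047 (adjusted p = 0.13), the last called lower without replicate 4 at -0.17 (adjusted p = 0.0070). GLA (alpha-galactosidase), MANBA (beta-mannosidase) and GLB1 (beta-galactosidase) rose in all 3 comparisons, by 0.43, 0.65 and 0.39 upon MI-503 and by 1.02, 1.04 and 0.64 upon the combination against DMSO. The GLB1 step between the treatments was 0.14 (adjusted p = 0.094) without replicate 4 of the combination, against 0.26 ± 0.066 (adjusted p = 0.0040) with it. HEXA, the alpha subunit of beta-hexosaminidase, was called higher in both comparisons of the combination, by 0.48 ± 0.067 (adjusted p = 6.4e-06) against DMSO and 0.37 ± 0.066 (adjusted p = 2.2e-04) against MI-503. Its MI-503 difference, 0.12 ± 0.063 (adjusted p = 0.14), was called without replicate 1 or 4 of the combination, at 0.16 (adjusted p = 0.0031) and 0.15 (adjusted p = 0.040).

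GUSB and NAGLU, which degrade glycosaminoglycans, were not called in any comparison. GUSB (beta-glucuronidase) was measured at 75.2, 72.9, 74.8 and 69.4 CPM in DMSO, 76.7, 77.6, 86.9 and 81.6 CPM upon MI-503, and 61.3, 76.8 and 83.2 CPM upon the combination. The MI-503 libraries were above DMSO, and combination replicate 1 was below every other library. GUSB differed by 0.14 ± 0.073 (adjusted p = 0.11), 0.0072 ± 0.078 (adjusted p = 0.94) and -0.13 ± 0.078 (adjusted p = 0.17), and without replicate 1 of the combination the first 2 were 0.19 (adjusted p = 0.0011) and 0.15 (adjusted p = 0.019). Without replicate 4, GUSB was called higher upon MI-503, at 0.18 (adjusted p = 0.021), and lower in the combination than in MI-503, at -0.27 (adjusted p = 0.0062). NAGLU (alpha-N-acetylglucosaminidase) stood at 36.2, 34.00, 36.8 and 36.3 CPM in DMSO, 32.96, 33.6, 37.3 and 38.2 CPM upon MI-503, and 31.2, 43.4 and 43.7 CPM upon the combination. Replicates 2 and 4 of the combination were above all other NAGLU libraries and replicate 1 below them. NAGLU differed by -0.013 ± 0.088 (adjusted p = 0.92), 0.13 ± 0.094 (adjusted p = 0.25) and 0.14 ± 0.094 (adjusted p = 0.24), and the last 2 were 0.30 (adjusted p = 1.9e-04) and 0.27 (adjusted p = 8.7e-04) without replicate 1.

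In the V0 sector of the V-ATPase, 1 of the 5 subunits moved far more than the rest. ATP6V0A1 (chr17:42458874-42522611), an isoform of the a subunit that forms the proton path, was measured at 41.1, 44.2, 39.9 and 39.3 CPM in DMSO, 47.3, 49.7, 42.9 and 45.3 CPM upon MI-503, and 93.02, 104 and 91.2 CPM upon the combination. The combination libraries were about level with each other and above all others. ATP6V0A1 rose by 1.22 ± 0.060 (adjusted p = 3.1e-11) against DMSO and 1.05 ± 0.059 (adjusted p = 5.5e-10) against MI-503. The small rise upon MI-503, 0.17 ± 0.058 (adjusted p = 0.020), was lost without DMSO replicate 3 or 4 or MI-503 replicate 2, with adjusted p = 0.056 to 0.082. ATP6V0D1, the d subunit that couples V0 to the central stalk and whose promoter held a CLEAR core, was measured at 62.9, 57.2, 64.2 and 60.3 CPM in DMSO, 63.1, 64.1, 71.9 and 67.1 CPM upon MI-503, and 66.1, 84.9 and 88.99 CPM upon the combination. It rose in the combination by 0.38 ± 0.081 (adjusted p = 5.1e-04) against DMSO and 0.26 ± 0.080 (adjusted p = 0.013) against MI-503. For ATP6V0D1 the step from MI-503 was lost without combination replicate 2, at 0.18 (adjusted p = 0.13), or replicate 4, at 0.13 (adjusted p = 0.19), and the difference upon MI-503, 0.12 ± 0.076 (adjusted p = 0.20), was called without replicate 1 at 0.17 (adjusted p = 0.0038). ATP6V0E1, the small e subunit, was called only between the treatments, by 0.17 ± 0.065 (adjusted p = 0.043). This was lost without any of 8 single libraries (DMSO 1, 3 and 4, MI-503 1, 2 and 3, combination 2 and 4), with adjusted p = 0.052 to 0.58, and with relative log expression scaling, at 0.15 (adjusted p = 0.073), and without combination replicate 1 ATP6V0E1 was higher than in DMSO, at 0.21 (adjusted p = 0.0011).

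The proteolipid subunits that build the rotating V0 ring were not called. ATP6V0C, the c subunit, was measured at 201, 183, 203 and 188 CPM in DMSO, 179, 184, 194 and 188 CPM upon MI-503, and 167, 190.4 and 207 CPM upon the combination. All 3 groups overlapped, with differences of -0.056 ± 0.057 (adjusted p = 0.44), -0.045 ± 0.062 (adjusted p = 0.54) and 0.011 ± 0.062 (adjusted p = 0.90). ATP6V0B, the c″ subunit, stood at 135, 122, 132 and 134 CPM in DMSO, 116, 117, 128 and 126 CPM upon MI-503, and 109, 127 and 137 CPM upon the combination. Groups overlapped here as well, with -0.10 ± 0.061 (adjusted p = 0.18), -0.074 ± 0.066 (adjusted p = 0.34) and 0.027 ± 0.066 (adjusted p = 0.77).

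In the V1 sector, ATP6V1A, the catalytic A subunit, paralleled ATP6V0A1. It was measured at 44.96, 42.96, 40.8 and 44.8 CPM in DMSO, 51.2, 51.4, 52.9 and 49.1 CPM upon MI-503, and 97.1, 85.9 and 88.2 CPM upon the combination. Replicate 1 was the highest combination library here, and each group lay above the one before it. ATP6V1A rose by 0.24 ± 0.051 (adjusted p = 8.4e-04), 1.06 ± 0.053 (adjusted p = 3.2e-11) and 0.82 ± 0.052 (adjusted p = 2.0e-09). Its partner in the catalytic head, ATP6V1B2, was not called in any comparison, at 187, 186, 179 and 184 CPM in DMSO, 183, 184, 186 and 181 CPM upon MI-503, and 181, 199 and 197 CPM upon the combination. ATP6V1B2 differed by -0.0063 ± 0.039 (adjusted p = 0.91), 0.061 ± 0.042 (adjusted p = 0.21) and 0.068 ± 0.042 (adjusted p = 0.20), and without replicate 1 the second was 0.12 (adjusted p = 0.0096). The accessory protein ATP6AP1, which assists assembly of the pump, rose in all 3 comparisons. It was measured at 98.6, 95.9, 97.4 and 97.9 CPM in DMSO, 120.0, 123, 127 and 121 CPM upon MI-503, and 123, 134 and 144 CPM upon the combination. The treated groups were above DMSO, by 0.33 ± 0.046 (adjusted p = 1.3e-05) and 0.46 ± 0.049 (adjusted p = 3.1e-07). The last call for ATP6AP1, 0.13 ± 0.049 (adjusted p = 0.043), was lost without any of 8 single libraries (DMSO 1, 3 and 4, MI-503 1, 2 and 4, combination 2 and 4), with adjusted p = 0.051 to 0.64, and also with relative log expression scaling, at 0.11 (adjusted p = 0.080). ATP6AP2, the prorenin receptor, which also associates with the pump, rose by 0.20 ± 0.068 (adjusted p = 0.018) upon MI-503, a call lost without DMSO replicate 2 at 0.18 (adjusted p = 0.053), and by 0.32 ± 0.072 (adjusted p = 8.3e-04) upon the combination. Between the treatments ATP6AP2 differed by 0.12 ± 0.072 (adjusted p = 0.19), or 0.21 (adjusted p = 0.0017) without replicate 1.

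**Figure D4:**
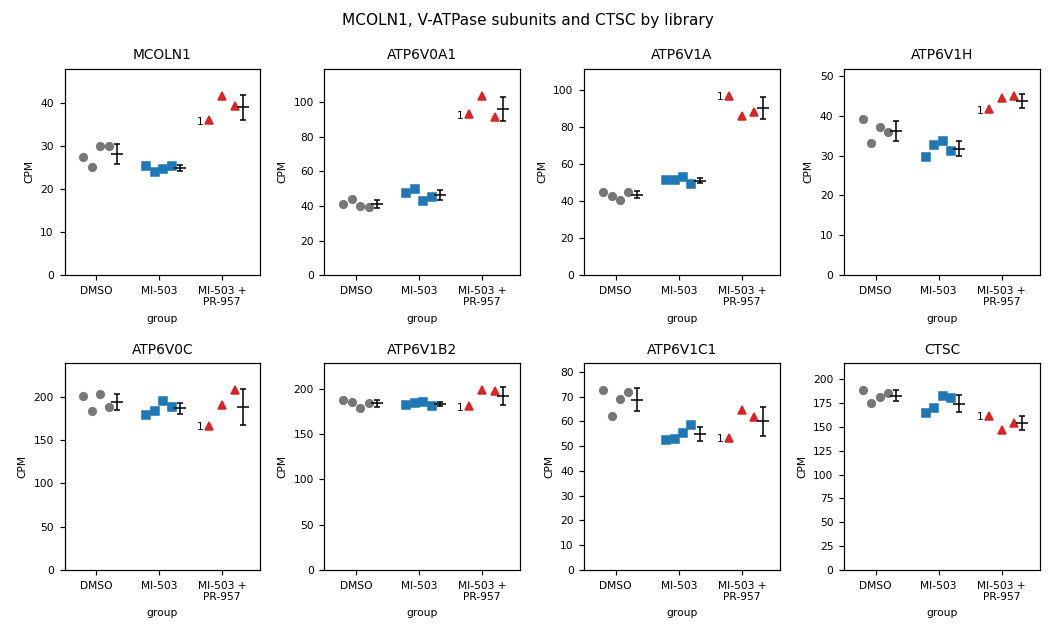
Points are libraries with group symbols as in the plot of the MiT/TFE factors, and black bars are mean ± SD in CPM on axes from 0. ATP6V0A1 and ATP6V1A lie far above the other groups in the combination, MCOLN1 and ATP6V1H dip upon MI-503 and lie above DMSO in the combination, ATP6V0C and ATP6V1B2 overlap between groups, and CTSC is lower in the combination.

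Several V1 genes, all subunits of the stalks or their regulator, were lower upon MI-503 and higher in the combination than in MI-503. ATP6V1H, the H subunit that regulates the pump, was measured at 39.1, 33.03, 37.1 and 35.8 CPM in DMSO, 29.5, 32.6, 33.7 and 31.2 CPM upon MI-503, and 41.7, 44.4 and 45.1 CPM upon the combination. The MI-503 range reached into DMSO at 1 library, and all combination libraries were above both groups. ATP6V1H fell upon MI-503, with a log2 fold change of -0.19 ± 0.059 (adjusted p = 0.012), a call lost without DMSO replicate 1 at -0.15 (adjusted p = 0.059) or with upper-quartile scaling at -0.13 (adjusted p = 0.062), and rose by 0.26 ± 0.062 (adjusted p = 0.0013) against DMSO and 0.46 ± 0.062 (adjusted p = 1.5e-05) against MI-503. ATP6V1D, the D subunit of the central rotor, stood at 16.9, 12.9, 16.1 and 14.9 CPM in DMSO, 11.7, 12.99, 11.9 and 11.7 CPM upon MI-503, and 13.6, 15.1 and 15.8 CPM upon the combination. It fell upon MI-503, with a log2 fold change of -0.33 ± 0.086 (adjusted p = 0.0039), and rose by 0.28 ± 0.092 (adjusted p = 0.017) from MI-503 to the combination, and its difference between the combination and DMSO was -0.047 ± 0.091 (adjusted p = 0.67). The rise of ATP6V1D was lost without combination replicate 2, at 0.24 (adjusted p = 0.082), or replicate 4, at 0.19 (adjusted p = 0.13). ATP6V1E1, an E subunit of the outer stalks, was measured at 67.9, 63.3, 61.9 and 64.5 CPM in DMSO, 57.3, 58.9, 56.9 and 56.8 CPM upon MI-503, and 59.97, 64.6 and 70.5 CPM upon the combination. MI-503 libraries were below DMSO without overlap, with a log2 fold change of -0.17 ± 0.050 (adjusted p = 0.011), a call lost without combination replicate 2 at -0.13 (adjusted p = 0.055) or with upper-quartile scaling at -0.10 (adjusted p = 0.078). The rise of ATP6V1E1 from MI-503 to the combination, 0.18 ± 0.054 (adjusted p = 0.013), was lost without combination replicate 2, at 0.14 (adjusted p = 0.085), or replicate 4, at 0.073 (adjusted p = 0.27), and the difference from DMSO was 0.0099 ± 0.054 (adjusted p = 0.88).

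ATP6V1C1, the C subunit whose release accompanies disassembly of the pump, fell upon MI-503. Alone among the 14 V-ATPase genes, ATP6V1C1 was called lower in the combination than in DMSO. It was measured at 72.6, 62.1, 69.1 and 71.7 CPM in DMSO, 52.7, 52.9, 55.4 and 58.6 CPM upon MI-503, and 53.5, 64.8 and 61.8 CPM upon the combination. MI-503 libraries were below all DMSO libraries, with a log2 fold change of -0.33 ± 0.063 (adjusted p = 3.3e-04), and the combination overlapped DMSO at replicate 2. The ATP6V1C1 difference of the combination from DMSO, -0.20 ± 0.068 (adjusted p = 0.014), was lost without combination replicate 1, at -0.11 (adjusted p = 0.12), without DMSO replicate 1, at -0.18 (adjusted p = 0.051), or with upper-quartile scaling, at -0.14 (adjusted p = 0.073). Between the treatments it was 0.12 ± 0.068 (adjusted p = 0.15), or 0.18 (adjusted p = 0.015) without combination replicate 1. ATP6V1F, the F subunit of the rotor, rose in the combination by 0.47 ± 0.10 (adjusted p = 6.5e-04) against DMSO, or 0.30 (adjusted p = 0.0050) without replicate 4. Its step from MI-503, 0.27 ± 0.10 (adjusted p = 0.036), was lost without combination replicate 2 or 4 or MI-503 replicate 1, 2 or 4, with adjusted p = 0.050 to 0.55, or with relative log expression scaling, at 0.26 (adjusted p = 0.052), and was 0.42 (adjusted p = 2.2e-06) without combination replicate 1. Upon MI-503 ATP6V1F differed by 0.20 ± 0.10 (adjusted p = 0.094), which was called without combination replicate 1 or 4, at 0.24 (adjusted p = 1.8e-04) and 0.23 (adjusted p = 0.0096).

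Levels within the pump differed widely between subunits. Per length of exon, ATP6V0C, of which each complex holds several copies, was the most abundant of the 41 genes in DMSO, at 169 ± 8.34 FPKM (SD, n = 4). ATP6V1F followed among the V-ATPase genes at 103 ± 4.45 FPKM and ATP6V0B at 74.6 ± 3.502 FPKM, and these 3 ranges did not overlap. ATP6V0A1 was lowest of the 14, at 5.98 ± 0.31 FPKM, below ATP6V1A and ATP6V1D at 9.48 ± 0.42 and 9.51 ± 1.09 FPKM, which did not differ beyond their spread. The 2 genes with the largest relative rise in the combination, ATP6V0A1 and ATP6V1A, were thus among the 3 lowest in DMSO, and they reached 13.95 ± 0.99 and 19.8 ± 1.29 FPKM there (n = 3). Outside the pump, PSAP stood at 141 ± 4.55 FPKM in DMSO and 408 ± 78.5 FPKM in the combination, CTSD at 44.5 ± 0.84 and 265 ± 69.9 FPKM, and GRN at 83.1 ± 4.23 and 244 ± 72.03 FPKM. In each combination library CTSD was above GRN, at 184, 305 and 304 FPKM against 161, 281 and 291 FPKM in replicates 1, 2 and 4. This difference was not tested.

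**Figure D5:**
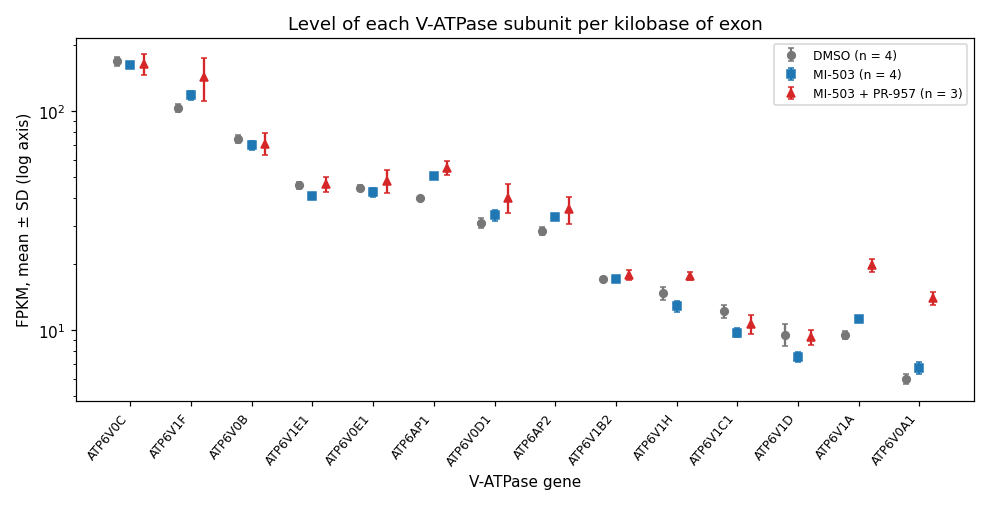
Points are mean FPKM and bars SD (DMSO and MI-503 n = 4, combination n = 3) of the 14 V-ATPase genes, ordered by their DMSO level, on a log axis. ATP6V0C is highest and ATP6V0A1 lowest in DMSO, and ATP6V1A and ATP6V0A1 show the widest gap between the combination and the other groups.

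Transcripts of the a subunit isoforms were compared as shares, with isoforms outside the 41 genes included. TCIRG1 (the a3 isoform, abundant in osteoclasts and phagocytes) made up 65.05% ± 1.66 of the summed FPKM of a isoforms in DMSO, 71.2% ± 0.57 upon MI-503 and 66.9% ± 0.66 upon the combination. The share of ATP6V0A1 was 10.6% ± 0.80 in DMSO, 10.6% ± 0.40 upon MI-503 and 17.5% ± 0.58 upon the combination, and that of ATP6V0A2 24.4% ± 1.23, 18.2% ± 0.33 and 15.6% ± 0.32. ATP6V0A2, an isoform known from the Golgi and endosomes, fell upon MI-503, with a log2 fold change of -0.26 ± 0.040 (adjusted p = 4.5e-05), and TCIRG1 rose by 0.29 ± 0.052 (adjusted p = 1.6e-04). TCIRG1 shares 15.02% of its exon bases with CHKA. ATP6V0A4 and ATP6V1G3 stayed at 0 to 0.05 CPM, and ATP6V0D2, ATP6V1B1, ATP6V1G2 and ATP6V0E2 under 0.6 CPM in every library, too low to be tested. Of the 6 isoforms that were tested, TFEC included, 3 were higher and 1 lower upon MI-503, beside 22.0% and 29.3% of all tested genes. Upon the combination against DMSO 3 were higher and 3 lower, beside 31.7% and 32.8%, the lower ones being ATP6V0A2, ATP6V1C2 and ATP6V1E2.

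Other genes of the organelle, listed from knowledge of the pathway, were counted in the same way. Of 22 further lysosomal hydrolases tested, 14 were higher and 1 lower upon MI-503, 19 higher and none lower upon the combination against DMSO, and 14 higher and none lower against MI-503. Among all tested genes 22.0%, 31.7% and 23.6% were higher and 29.3%, 32.8% and 23.8% lower in these 3 comparisons. IDS (iduronate sulfatase) and MAN2B1 (alpha-mannosidase) were among those with the smallest adjusted p, with 0.80 and 0.50 upon MI-503 and 1.76 and 1.10 upon the combination against DMSO. Of 18 further membrane proteins and transporters, 12 were higher and 2 lower upon MI-503, beside the same 22.0% and 29.3%. Upon the combination against DMSO 15 were higher and 1 lower, beside 31.7% and 32.8%, with the smallest adjusted p there for the cholesterol exporter NPC1 (1.16) and the activator GM2A (1.43). The fold change of CD68, a macrophage marker, was larger, at 1.59 ± 0.18 (adjusted p = 6.4e-07), from 60.8, 69.2, 62.7 and 61.4 CPM in DMSO and 91.6, 93.03, 97.9 and 88.7 CPM upon MI-503 to 107, 216 and 254 CPM upon the combination, with replicate 1 the lowest of its group. The 6 genes of hydrolase sorting were divided, with 3 higher and 2 lower upon MI-503, beside 22.0% and 29.3% of all tested genes. SORT1, the sorting receptor sortilin, fell in both comparisons with DMSO, with log2 fold changes of -0.86 ± 0.11 (adjusted p = 4.9e-06) upon MI-503 and -1.61 ± 0.13 (adjusted p = 6.8e-09) upon the combination, from 9.05, 7.08, 8.44 and 7.92 CPM in DMSO to 3.93, 4.48, 4.38 and 5.12 CPM and 2.64, 2.46 and 2.86 CPM. IGF2R, the mannose 6-phosphate receptor, rose by 0.52 ± 0.045 (adjusted p = 2.3e-08) upon the combination. Among 20 genes of nutrient sensing at the lysosome, 5 were higher and 5 lower upon MI-503, near the 22.0% and 29.3% of all tested genes, and 10 higher and 7 lower upon the combination against DMSO, beside 31.7% and 32.8%. RRAGD, a Rag GTPase through which mTORC1 controls TFEB, rose by 0.95 ± 0.079 (adjusted p = 4.8e-08) upon MI-503, and FLCN, the folliculin subunit of a GTPase activator for Rag proteins, rose by 0.60 ± 0.061 (adjusted p = 1.9e-07) upon the combination.

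Calls are set beside the promoter motif for the 29 genes with an entry. Of the 8 genes with an E-box, 4 were higher and 1 lower upon MI-503 (median change 0.21 on the log2 scale), and of the 21 genes without one, 13 were higher and 2 lower (median 0.25). In the combination against DMSO the counts were 6 higher and none lower, with a median of 0.43, against 15 higher and 2 lower, with a median of 0.47. In the combination against MI-503 they were 6 higher and none lower, with a median of 0.27, against 11 higher and 2 lower, with a median of 0.13. Among all tested genes 22.0%, 31.7% and 23.6% were higher and 29.3%, 32.8% and 23.8% lower in the same order of comparisons. These are counts of a few genes each and were not tested.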

How the data were processed

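Poly(A) RNA of MOLM-13 cells was sequenced as TruSeq paired-end libraries. Per the labels and the study's methods, the authors trimmed reads (Trimmomatic 0.39), aligned them to hg38 (STAR 2.7.10a) and deposited whole-number counts of fragments per gene made with featureCounts 2.0.1, per library and as a joined table, in which 0 values differed from the single tables. Per the file headers, strand was not used and fragments that mapped or overlapped more than once were not counted. Fold changes and p-values of the authors' own comparisons (MI-503 or the combination against DMSO) were deposited too and were not used here.

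Groups were taken from the sample titles. Genes were filtered with filterByExpr (minimum count 10, minimum total 15) and tested in one fit over all 11 libraries with edgeR 4.0.16 (R 4.3.3), using TMM factors (0.956 to 1.06), the quasi-likelihood F test and Benjamini-Hochberg adjustment over the 14683 genes tested. Calls required an adjusted p below 0.05, and all adjusted p-values are two-sided values from this test. SE was derived from the fold change and F. FPKM is CPM per kilobase of the exon length in the tables. The biological coefficient of variation was 6.14%. The scripts were tested on simulated data. Alternatives were other scaling factors, no or a stricter filter (at least 1 CPM in every library), DESeq2 1.42.0, limma-voom 3.58.1, a threshold of 0.01, only the groups compared, the replicate number as a block, and leaving out each library.

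All 41 genes are described. Values by library are given for the MiT/TFE factors, the 2 genes of each class with the smallest adjusted p in each comparison, genes called in opposite directions and genes never called, and CD63, CD68, CTSC, CTSH, CTSL and GRN were added after their values were seen. Of the pathway lists, genes with the smallest adjusted p are named, and a few genes of the pathway and marker lists are not reported here by name. The members and lists were chosen with earlier results of these data known. No gene was dropped from the lists, and coordinates are hg38 as in the tables.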

Additional observations from a re-analysis of the deposited data

Results flagged for a closer look

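One value stood apart from the other libraries of its group. For CTSD, MI-503 replicate 3 was at 150.9 CPM, whereas the other 3 MI-503 libraries were at 143.7 to 144.8 CPM, so that its gap to the nearest library took 0.853 of the range of the group, above the 95% critical value of Dixon's test for 4 libraries. The combination libraries were at 378 CPM and above. The test was run on the 82 groups of 4 libraries (41 genes in DMSO and in MI-503), of which chance alone flags about 1 in 20, and it gave this single flag. The combination, with 3 libraries, could not be tested in this way, including its replicate 1.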

How the results depend on the processing

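In 123 pairs of a gene and a comparison, 87 were called, and 69 of these kept direction and call in all 20 alternative settings. The other 18 lost the call in at least 1 setting, and none of the 87 changed sign. The count of genes lower upon MI-503 against DMSO was 5, and 2 with upper-quartile factors or a threshold of 0.01, and 3 to 5 when 1 library was left out. The count lower in the combination than in MI-503 was 2, and 1 with the stricter filter (CTSH was not tested), a threshold of 0.01 or the replicate block, and 1 to 4 when 1 library was left out. The count higher in the combination than in MI-503 was 26, and 16 to 30 when 1 library was left out, and its median of 0.26 went from 0.13 to 0.32. The counts over all tested genes, given above for the combination libraries, moved too. Other counts stayed within 1.5 times.

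All genes that changed sign were close to 0 and not called with all libraries. Upon MI-503 against DMSO, ATP6V1B2 was 0.021 with relative log expression factors, 0.056 with upper-quartile factors, 0.013 without a filter, 0.024 with the stricter filter, 0.021 with DESeq2 and 0.041 with only the 2 groups. NAGLU was 0.014, 0.049, 0.0063, 0.017, 0.014 and 0.034 in the same order. TFEB was 0.027 with upper-quartile factors and 0.013 with only the 2 groups, and ATP6V0C 0.0058 with upper-quartile factors. In the combination against DMSO, ATP6V0C and ATP6V1D were 0.023 and 0.023 with upper-quartile factors, ATP6V1E1 was -0.0032 with the replicate block, and GUSB -0.012 with limma-voom. Between the treatments ATP6V0C was -0.0044 with relative log expression factors and -0.0039 with DESeq2. The cause was not tested.

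When 1 library was left out, the genes with a change of sign ranged as follows. Upon MI-503 against DMSO, ATP6V1B2 went from -0.020 to 0.038, NAGLU from -0.049 to 0.031 and TFEB from -0.081 to 0.010. In the combination against DMSO, ATP6V0B went from -0.15 to 0.037, ATP6V0C from -0.12 to 0.056, ATP6V1D from -0.12 to 0.037, ATP6V1E1 from -0.056 to 0.088 and GUSB from -0.095 to 0.15. Between the treatments, ATP6AP2 went from -0.023 to 0.21, ATP6V0B from -0.089 to 0.093, ATP6V0C from -0.10 to 0.068 and TPP1 from -0.086 to 0.060.

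Replicate numbers did not pair the libraries. Deviations of same-numbered libraries from their group means correlated at -0.10 to 0.14, and a library correlated best with its own number in 7 of 20 comparisons with another group. With the replicate block, 22, 29 and 26 genes were higher in the 3 comparisons, as without it, and the CTSH call between the treatments was lost, at -0.53 (adjusted p = 0.069, edgeR).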

Other observations

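SGSH, the sulfamidase that degrades heparan sulfate, is one of the further hydrolases and was singled out after its values were seen. It was at 0.17 to 0.24 CPM in DMSO and 0.17 to 0.42 CPM upon MI-503, and at 1.37, 11.9 and 7.999 CPM in replicates 1, 2 and 4 of the combination. The log2 fold change against DMSO was 5.10, the largest of the pathway lists. It was taken over a DMSO level at the 0.63 percentile of the tested genes. SGSH passed the count filter only through the combination libraries, where it was high, so no conclusion is drawn from this size. Of its exon bases, 11.7% are shared with CARD14 and SLC26A11. Among the 41 genes, 4 were highest in replicate 1 of the combination, the library that was lowest for 35 of them, namely MITF, ATP6V1A, CTSC and CTSH.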
